A study of Mus musculus with 12 samples.

Results

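The 10 genes described here, Spi1, Csf1r, Ptprc, Sirpa, Tyrobp, Fcer1g, Pik3cd, Coro1a, Mpo and Plac8, are used by myeloid cells and macrophages and were followed in mouse yolk sac. They were found by their current or older symbol among the transcript probes of 12 Agilent arrays (Spi1 is listed there as Sfpi1), which gave 20 probes in 29 spots. Of the 10 genes, 8 had a probe that was kept, among 13894 genes tested in all. They were selected on their log2 ratios over the 4 groups of these same arrays, so those values are a description. Where it is said which of them passed a threshold, nothing is read from it.

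The study compared yolk sacs homozygous for the Arid1a (Baf250a) allele V1068G, called mutants below, with wild-type yolk sacs, at embryonic day 9.5 (E9.5) and embryonic day 8.5 (E8.5). The ARID1A protein binds DNA and belongs to SWI/SNF, which repositions nucleosomes. The groups were mutant E9.5, wild type E9.5, mutant E8.5 and wild type E8.5, with 3 biological replicates each, all on a CD1 background according to the labels. The RNA came from whole dissected yolk sacs, so every cell carries the mutation and all cell types are mixed. Single sacs and pools are not told apart by the labels. Each array set yolk sac RNA, in Cy5, against the same RNA from whole wild-type neonatal mice of mixed 129Sv and C57BL/6 background, in Cy3. Values are log2 ratios of Cy5 over Cy3, so a value of 0 is the level of the neonatal reference, and values of different probes cannot be set against each other.

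The yolk sac makes the first macrophages of the embryo. Primitive macrophages arise in its blood islands without passing through a monocyte stage, and erythro-myeloid progenitors that bud from its endothelium go on to give macrophages, granulocytes and mast cells. The transcription factor PU.1, encoded by Spi1, switches on much of the myeloid programme, including the receptor gene Csf1r. Receptors without kinase activity signal through small adaptors such as DAP12 (Tyrobp) and the Fc receptor gamma chain (Fcer1g), which recruit kinases and phosphoinositide 3-kinases.

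On the arrays, 46.7 to 50.1% of transcript probes were well above background in Cy5 by the flag of the scanner software. Precision is limited by the number of arrays. Markers of the labelled tissue were present, since all 6 visceral endoderm genes and all 9 erythroid genes listed were well above background on all 12 arrays. Replicate 3 of mutant E9.5, of wild type E9.5 and of mutant E8.5 stood apart by mean log2 ratios of 2.49, 2.16 and 2.79 over 5 trophoblast genes, against 0.44 to 0.89 on the other 9 arrays. Calls that end without these 3 arrays are named beside their results. Wild type E8.5 replicate 2 stood apart in 7 genes of the embryonic heart, with a mean log2 ratio of -1.95, against -2.99 to -2.62 on the other 11 arrays. The arrays lay on 3 slides, numbered as the replicates, each with 1 array per group at a position fixed by group. Effects of position cannot be told apart from those of group. The mutation changes a single residue, so the level of Arid1a does not check the labels. Its difference between mutant and wild type was 0.16 ± 0.06 at E9.5 (adjusted p = 0.3 by limma) and 0.05 ± 0.06 at E8.5 (adjusted p = 0.825), where ± is the standard error of the fit, as in all differences below.

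Most of the 10 genes were dim in yolk sac. The Cy5 intensity of the 8 measured genes on their main probes ran between 50.6 and 1146 units, against a median local background of 35 to 37 units. A dim signal matters for the size of a difference, because an offset of 50 units was added before taking logs and pulls the differences of dim probes towards 0. Values from the processed signals of the scanner software, which hold no such offset, are therefore given beside several of the differences.

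Spi1 was not well above background in Cy5 on any of the 12 arrays. Its single probe gave 36.5 to 41.7 units, about the background, and the neonatal reference did not exceed background for it either. Nothing can be said from it about the level of PU.1 transcripts in any group.

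Ptprc encodes CD45, the tyrosine phosphatase carried by nucleated blood cells. None of its 4 probes passed the filter on dim probes. The probe printed in 10 spots gave 43.5, 41.3 and 40.2 Cy5 units in mutant E9.5 yolk sacs, against 46.1, 44.6 and 42.0 units in wild-type E9.5 yolk sacs. At E8.5 it gave 39.1, 40.3 and 38.5 units in mutants and 39.8, 38.6 and 39.1 units in wild type. It was well above background on 2 of the 3 wild-type E9.5 arrays and on none of the other 10, while the reference exceeded background on all 12. The other 3 Ptprc probes were above background on 0 arrays, so Ptprc was at the edge of detection in whole yolk sac RNA.

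**Figure D1:**
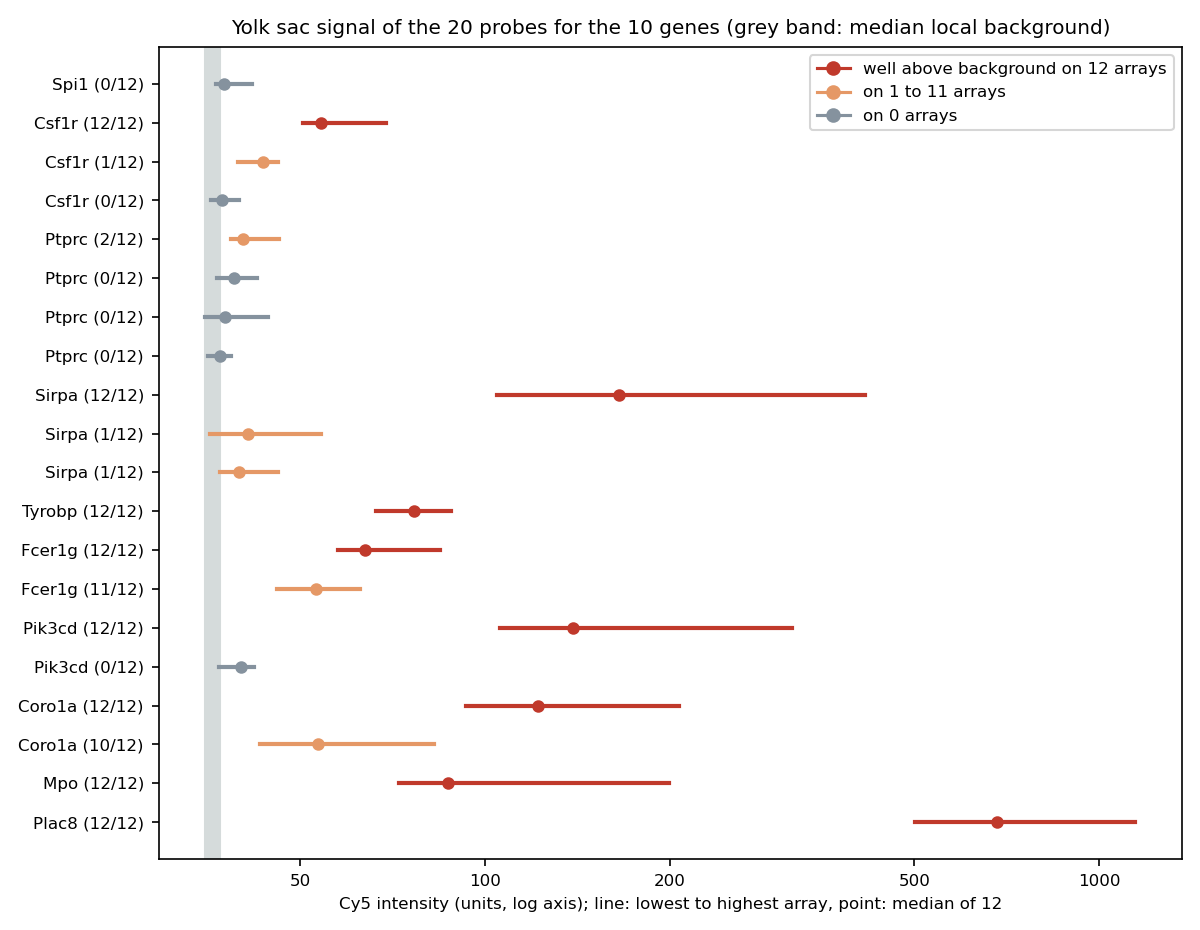
Cy5 intensity (log axis) of the 20 probes for the 10 genes, each line running from the lowest to the highest of 12 arrays with the median as a point. Colour and the count beside each name give the number of arrays well above background. Spi1 and 3 of the 4 Ptprc probes reach down to the grey band of background (35 to 37 units), and Plac8 reaches 1146 units.

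Csf1r encodes the receptor for macrophage colony-stimulating factor, on which macrophages depend. Its log2 ratios were -1.03, -0.79 and -0.72 in mutant E9.5 yolk sacs, against -0.77, -0.75 and -0.86 in wild-type E9.5 yolk sacs. At E8.5 they were -1.04, -0.90 and -0.998 in mutants, against -1.03, -0.93 and -1.05 in wild type. The genotypes overlapped at both stages, and the mutant-minus-wild-type differences were -0.05 ± 0.07 at E9.5 and 0.02 ± 0.07 at E8.5. On the processed signals the E9.5 difference was -0.27 ± 0.16. Of the other 2 Csf1r probes, 1 was well above background on 1 array and 1 on none.

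Sirpa encodes SIRP alpha, the inhibitory receptor through which myeloid cells read CD47 and hold back phagocytosis. Sirpa had log2 ratios of -2.39, -1.97 and -2.14 in mutant E9.5 yolk sacs, against -1.44, -0.95 and -1.64 in wild-type E9.5 yolk sacs. At E8.5 Sirpa stood at -2.37, -2.49 and -2.70 in mutants, against -2.12, -1.94 and -2.07 in wild type. All 3 mutants lay below all 3 wild types at each stage. In RNA of a whole tissue, fewer cells of a type and less RNA per cell cannot be told apart, here and in every result below. The Sirpa difference was -0.82 ± 0.15 at E9.5, 1.77-fold lower in mutants, and -0.48 ± 0.15 at E8.5, 1.39-fold lower. Without the 3 trophoblast-high arrays these differences were -0.98 ± 0.16 and -0.39 ± 0.14. The other 2 Sirpa probes lay near background and were well above it on 1 array each, both times a wild-type E9.5 array. Their E9.5 differences were -0.15 ± 0.06 and -0.04 ± 0.06.

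Tyrobp encodes DAP12, an adaptor with an immunoreceptor tyrosine-based activation motif that couples many macrophage receptors to kinases. Its log2 ratios lay between -2.44 and -2.24 on all 12 arrays. Mutants differed from wild type by 0.02 ± 0.06 at E9.5 and by 0.004 ± 0.06 at E8.5, with overlapping arrays at both stages. Fcer1g encodes the gamma chain shared by the high-affinity IgE receptor and activating Fc receptors for IgG. Its ratios were -1.38, -1.31 and -1.23 in mutant E9.5 yolk sacs, against -1.19, -1.18 and -1.25 in wild-type E9.5 yolk sacs. At E8.5 Fcer1g stood at -1.45, -1.40 and -1.39 in mutants, against -1.38, -1.22 and -1.32 in wild type. The genotypes overlapped at E9.5, while at E8.5 the 3 mutants lay just below the 3 wild types. The Fcer1g difference was -0.10 ± 0.06 at E9.5 and -0.11 ± 0.06 at E8.5. On the processed signals it was -0.23 ± 0.09 at E9.5 and -0.19 ± 0.09 at E8.5. A second Fcer1g probe gave -0.06 ± 0.06 and 0.02 ± 0.06 at these stages.

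Pik3cd encodes p110 delta, the phosphoinositide 3-kinase catalytic subunit most abundant in leukocytes. Pik3cd had log2 ratios of -0.62, -0.43 and -0.39 in mutant E9.5 yolk sacs, against 0.56, 0.47 and 0.45 in wild-type E9.5 yolk sacs. Values at E8.5 were -0.32, -0.43 and -0.46 in mutants, against 0.11, -0.17 and 0.11 in wild type. The genotypes did not overlap at either stage, while mutants of E9.5 and of E8.5 overlapped each other. The difference was -0.98 ± 0.08 at E9.5, 1.97-fold lower in mutants, and -0.42 ± 0.08 at E8.5, 1.34-fold lower. Within slides it was -1.19, -0.90 and -0.84 at E9.5. At E8.5 it was -0.43, -0.26 and -0.57. The low wild-type value at E8.5, -0.17, came from the array that stood apart in heart genes, and without that array the E8.5 difference was -0.51. The second Pik3cd probe was well above background on 0 arrays.

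Coro1a encodes coronin 1A, an actin-binding protein of leukocytes. Coro1a had log2 ratios of -1.72, -1.67 and -1.69 in mutant E9.5 yolk sacs, against -1.40, -1.14 and -1.55 in wild-type E9.5 yolk sacs. At E8.5 Coro1a stood at -2.07, -1.95 and -1.99 in mutants, against -2.01, -1.95 and -2.06 in wild type. The genotypes were apart at E9.5 and overlapped at E8.5. The difference was -0.33 ± 0.08 at E9.5, 1.26-fold lower in mutants, and 0.004 ± 0.08 at E8.5. On the processed signals the E9.5 difference was -0.50 ± 0.10. A second Coro1a probe, well above background on 10 arrays, gave -0.17 ± 0.06 at E9.5, again with the 3 mutants below the 3 wild types.

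Mpo encodes myeloperoxidase, the haem enzyme of primary granules, made early in granulocyte and monocyte precursors. Mpo had log2 ratios of -2.64, -2.52 and -2.40 in mutant E9.5 yolk sacs, against -1.87, -1.68 and -2.17 in wild-type E9.5 yolk sacs. Values at E8.5 were -2.86, -2.71 and -2.72 in mutants, against -2.86, -2.73 and -2.96 in wild type. Mutants lay below wild type at E9.5 on all 3 slides, while at E8.5 the genotypes overlapped. The difference was -0.62 ± 0.10 at E9.5, 1.53-fold lower in mutants, and 0.08 ± 0.10 at E8.5. In raw Cy5 units the E9.5 values averaged 103 in mutants and 183 in wild type, and the processed signals gave a difference of -0.999 ± 0.14. Without the 3 trophoblast-high arrays the E9.5 difference was -0.80 ± 0.10. At E8.5 the processed-signal difference was 0.20 ± 0.14.

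Plac8, named for its expression in placenta, encodes a small cysteine-rich protein also found in myeloid cells. Plac8 had log2 ratios of 0.12, 0.26 and 0.11 in mutant E9.5 yolk sacs, against -0.65, -0.54 and -0.33 in wild-type E9.5 yolk sacs. At E8.5 Plac8 stood at -0.22, -0.36 and 0.02 in mutants, against -0.74, -0.48 and -0.61 in wild type. All 3 mutants lay above all 3 wild types at each stage, the reverse of Sirpa and Pik3cd. The difference was 0.67 ± 0.10 at E9.5, 1.59-fold higher in mutants, and 0.42 ± 0.10 at E8.5, 1.34-fold higher. The highest E8.5 mutant and the highest E9.5 wild type were arrays high in trophoblast genes. Without the 3 such arrays the differences were 0.78 ± 0.10 at E9.5 and 0.31 ± 0.09 at E8.5. The E9.5 difference was thus larger without them and the E8.5 difference smaller. The part of trophoblast RNA in these differences was not tested. On the median-centred scale, with no loess, the E9.5 difference was 0.63 and no longer passed the threshold used below.

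**Figure D2:**
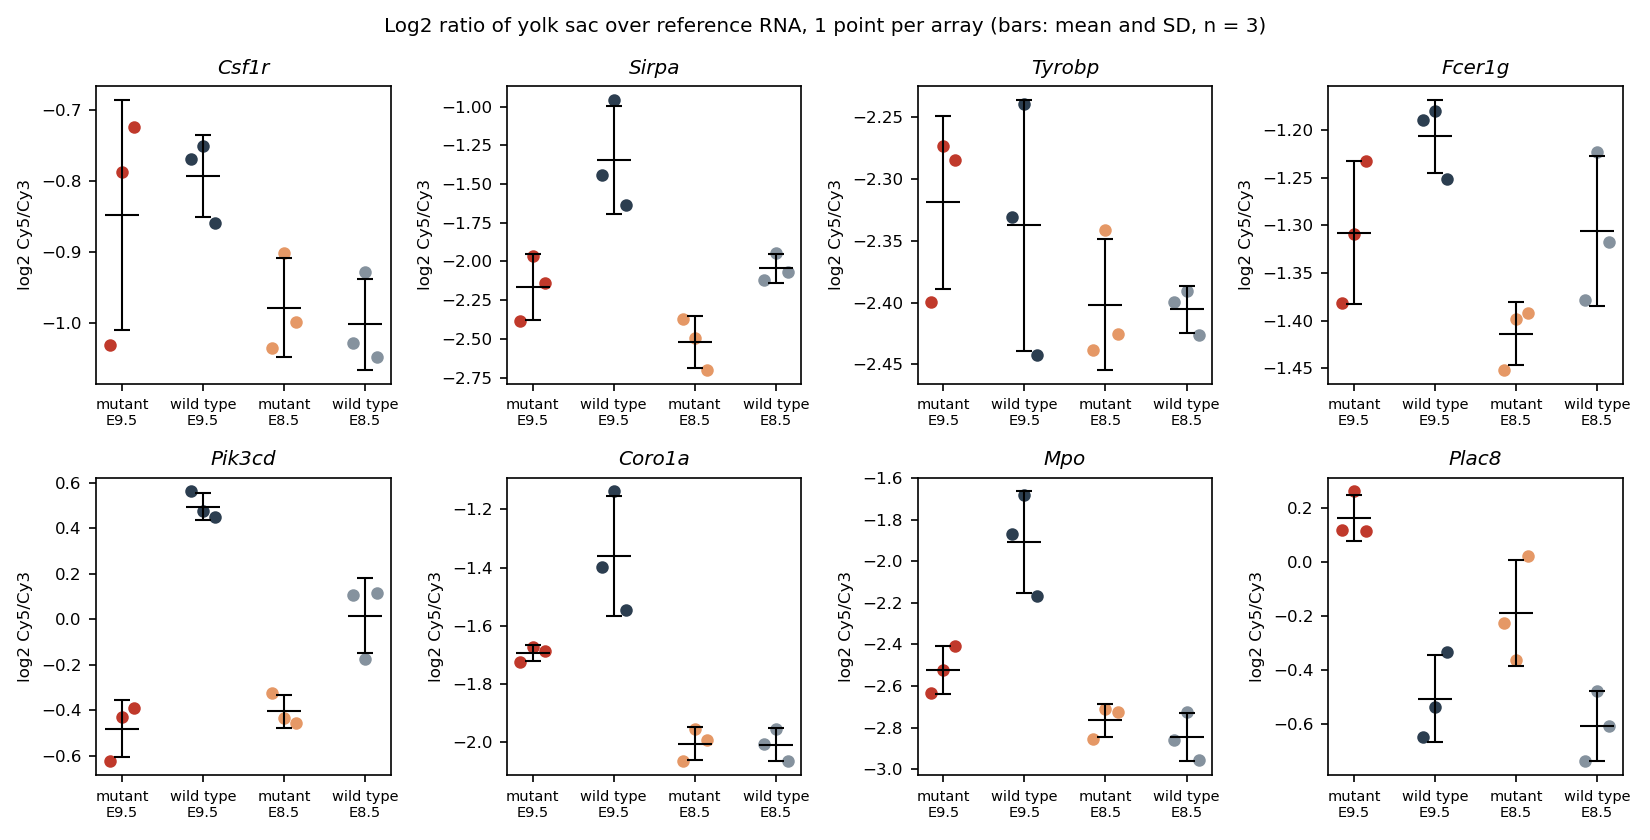
Log2 ratio of yolk sac over reference RNA for the 8 measured genes, 1 point per array and the mean with SD of 3 arrays per group, each panel with its own axis. At E9.5 the mutants lie below wild type for Sirpa, Pik3cd, Coro1a and Mpo and above it for Plac8, while Csf1r, Tyrobp and Fcer1g overlap.

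Promoter sequence is shown for 3 of these genes, since Mpo and Coro1a followed each other over the arrays (described below) and were lower in E9.5 mutants, while Plac8 was higher there. The RefSeq table of mouse promoters (GRCm38.p6) held 11 start sites of 6 of the 10 genes, namely Ptprc, Fcer1g, Pik3cd, Plac8, Coro1a and Mpo. The 250 bases before a start site are printed, for the outermost start where a gene has several. Capitals mark GAGGAA, a core sequence that PU.1 is known to bind, and its reverse complement.

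Mpo, chr11:87793534-87793783, plus strand: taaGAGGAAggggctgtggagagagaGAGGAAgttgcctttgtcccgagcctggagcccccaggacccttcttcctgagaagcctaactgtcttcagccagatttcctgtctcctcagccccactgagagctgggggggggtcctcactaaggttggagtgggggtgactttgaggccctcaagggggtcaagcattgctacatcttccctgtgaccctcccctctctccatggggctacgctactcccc

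Coro1a, chr7:126704817-126705066, minus strand: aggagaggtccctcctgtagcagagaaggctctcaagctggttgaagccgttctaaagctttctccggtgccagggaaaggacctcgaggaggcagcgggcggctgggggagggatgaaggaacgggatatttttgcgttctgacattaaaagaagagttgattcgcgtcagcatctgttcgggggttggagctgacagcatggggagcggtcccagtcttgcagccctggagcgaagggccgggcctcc

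Plac8, chr5:100572206-100572455, minus strand: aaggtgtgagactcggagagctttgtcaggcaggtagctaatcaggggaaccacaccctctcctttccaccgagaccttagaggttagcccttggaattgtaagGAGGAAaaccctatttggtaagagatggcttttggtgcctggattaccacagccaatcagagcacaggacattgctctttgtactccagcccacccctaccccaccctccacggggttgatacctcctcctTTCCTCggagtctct

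The Mpo window holds 2 matches and the Plac8 window 2, while the Coro1a window holds none. Matches were found in 3 of the 11 windows, including 1 of Ptprc, against 23.3% of all 32851 windows of this length in the table. The sequence TGTGGT, known to be bound by RUNX factors and searched on both strands, was found in 1 of the 11, that of Plac8 printed above, against 14% of all windows, and overlaps none of the capitals. These letters are a description of the windows and say nothing about binding in yolk sac.

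Counted over the measured genes, 4 of the 8 differed between mutant and wild type at E9.5 at an adjusted p under 0.05 over all genes tested (limma), with Plac8 higher and Sirpa, Pik3cd and Mpo lower in mutants. Of all genes, 1.97% differed at that threshold (0.892% higher and 1.08% lower). The arrays did not overlap for 5 of the 8 genes, against 17.2% of all genes. At E8.5, Pik3cd alone of the 8 passed, against 1.45% of all genes, 0.741% being lower, and the arrays did not overlap for 4 of the 8 against 17.9%. These contrasts were among those that chose the genes, so nothing is read from the counts. The median of the 8 differences was -0.22 at E9.5 and 0.004 at E8.5, beside a median of -3.4e-05 and 0.002 over all genes. With the slide as a block, Coro1a passed in addition at E9.5 and Plac8 at E8.5.

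The E8.5 call of Pik3cd rested on single arrays. Leaving out replicate 1 or 3 of wild type E8.5 ended it (differences of -0.37 each), as did leaving out mutant E8.5 replicate 2 (-0.41) or 3 (-0.39). The call also ended on the processed signals, although the difference there was -0.61 ± 0.13, with median centring (-0.53) and without the trophoblast-high arrays (-0.39). At E9.5 Pik3cd, Sirpa and Mpo passed in all 21 alternatives tried, Plac8 in 20 and Coro1a in 6. The genes were chosen on these same values, so nothing is read from this. Of the 21, the processed signals and the authors' deposited table hold nearly the same values.

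The change of the mutant effect between the stages was taken as the E9.5 difference minus the E8.5 difference. It was -0.70 ± 0.15 for Mpo, -0.56 ± 0.12 for Pik3cd, -0.34 ± 0.12 for Coro1a, -0.34 ± 0.21 for Sirpa and 0.25 ± 0.14 for Plac8. For Csf1r, Tyrobp and Fcer1g it was -0.08 ± 0.11, 0.01 ± 0.09 and 0.01 ± 0.08. None of the 8 genes passed the test of this change by limma, nor did any of all genes (0%), where 799 of 13894 had an unadjusted p under 0.05 and the smallest adjusted p was 0.113. Mpo passed when wild-type E9.5 replicate 3 was left out, at -0.83. On the processed signals the change was -1.2 for Mpo and -0.56 for Coro1a, and neither passed.

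**Figure D3:**
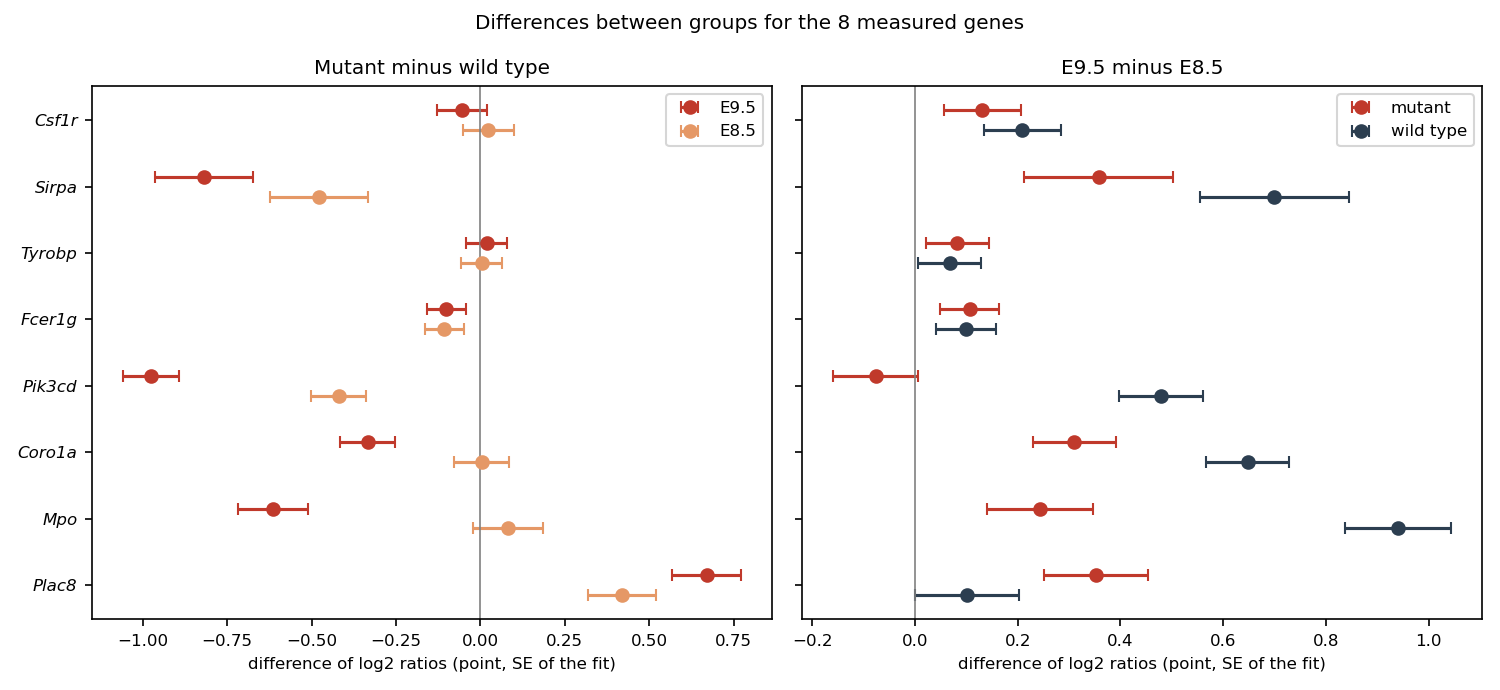
Log2 differences of the 8 measured genes with standard errors from the fit, mutant minus wild type at E9.5 and E8.5 on the left, and E9.5 minus E8.5 in mutants and in wild type on the right. Pik3cd is lowest on the left at -0.98 for E9.5, and Mpo is highest on the right at 0.94 in wild type beside 0.24 in mutants.

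Set between the stages, the values in mutants and in wild type stood as follows. In mutants, E9.5 exceeded E8.5 by 0.24 ± 0.10 for Mpo, 0.31 ± 0.08 for Coro1a and 0.36 ± 0.15 for Sirpa, and Pik3cd differed by -0.08 ± 0.08. In wild type the same differences were 0.94 ± 0.10 for Mpo (1.92-fold higher at E9.5), 0.65 ± 0.08 for Coro1a, 0.70 ± 0.15 for Sirpa and 0.48 ± 0.08 for Pik3cd. For Plac8 the difference was 0.35 ± 0.10 in mutants and 0.10 ± 0.10 in wild type. Both comparisons share arrays with the genotype comparisons above, so they are not separate evidence.

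Csf1r, Tyrobp and Fcer1g differed between the stages by 0.13, 0.08 and 0.11 in mutants and by 0.21, 0.07 and 0.10 in wild type. Csf1r is dim, and on the processed signals its stage difference was 0.53 ± 0.16 in mutants and 0.89 ± 0.16 in wild type. Fcer1g gave 0.39 ± 0.09 and 0.43 ± 0.09 there. For Mpo the processed signals gave 0.47 ± 0.14 in mutants and 1.67 ± 0.14 in wild type. Coro1a gave 0.44 and 0.99 on that scale, and Tyrobp 0.18 and 0.13. The size of a stage difference in these dim genes therefore depended on the processing, while the sign was the same for these 5 genes. The processed signals differ from the main values in both background correction and normalisation. The part of each was not tested.

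In mutants, 2 of the 8 genes passed between the stages, Coro1a and Plac8, both higher at E9.5, against 21.6% of all genes (1526 of 13894 higher). In wild type 4 passed, Mpo, Sirpa, Coro1a and Pik3cd, all higher at E9.5, against 23.8% of all genes (12.9% higher). The arrays did not overlap for 4 and 5 of the 8, against 38.4% and 37.4% of all genes. The median of the 8 differences was 0.19 in mutants and 0.34 in wild type, beside -0.01 over all genes in both. Without mutant E8.5 replicate 1 neither Coro1a (0.28) nor Plac8 (0.33) passed in mutants, and without the trophoblast-high arrays Coro1a (0.31) did not. Plac8 also failed to pass without mutant E8.5 replicate 2 (0.27) or mutant E9.5 replicate 2 (0.30), and on the processed signals (0.37). Other calls were gained. Mpo passed in mutants in 5 of 21 alternatives. These were the processed signals (0.47), the authors' deposited table, which repeats those signals, and median centring (0.45). The others used only the arrays compared, or left out wild-type E9.5 replicate 3 (0.24). With the slide as a block, Sirpa passed in mutants (0.36) and Csf1r in wild type (0.21), and over the 21 alternatives Sirpa did so in 6 and Csf1r in 9.

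The measured genes also differed in how they followed each other over the 12 arrays, which share 4 groups and 3 slides. Mpo and Coro1a were most alike (Pearson's r = 0.974), followed by Sirpa with Coro1a and with Mpo (0.838 each). Pik3cd and Plac8 were most opposed (r = -0.746). Over all other genes with an official symbol, the most alike to Coro1a was Sars (r = 0.984), which was also among the 3 most alike to Mpo (0.95) beside Comtd1 (0.955) and Ndufa13 (0.952). The closest to Sirpa was Scamp1 (0.962), to Pik3cd Ttc7 (0.956), to Plac8 Exoc3l4 (0.942), to Csf1r Sec24c (0.959), to Tyrobp Vps11 (0.951) and to Fcer1g Sh3pxd2b (0.953). Next in rank were Sgk2 and Retreg3 for Coro1a (0.978 and 0.968) and Anks1 and Atox1 for Sirpa (0.955 and 0.951). For Pik3cd they were Pafah2 and Pnrc2 (0.933 each), and for Plac8 Cd40 and Esm1 (0.94 and 0.914). For Csf1r they were Gna13 and Aprt (0.955 and 0.953), and for Tyrobp Cpd and Dele1 (0.949 and 0.923). For Fcer1g they were Fam118b and Nectin1 (0.937 and 0.935). None of these closest genes was on the myeloid lists, which hold 80 of the 13894 genes tested, so nothing is read from this.

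Pik3cd lies on chromosome 4, as does Arid1a, so its neighbours were read in the RefSeq gene order of GRCm38.p6. Of the 5 tested genes on either side, Ctnnbip1, 2 genes away, was lower in mutants at E9.5 by -0.56 ± 0.10 (adjusted p = 0.00865 by limma). The adjacent Clstn1 differed by -0.21 (adjusted p = 0.261) and Tmem201 by -0.04 (adjusted p = 0.893). At E8.5 none of the 10 passed. Among the 155 tested genes between Arid1a and Pik3cd, 7.1% differed between the genotypes at E9.5, against 1.91% of the rest, and 6.45% at E8.5, against 1.39% of the rest. Of these, 8 of 11 were lower at E9.5 and 7 of 10 at E8.5. Whether chromosome segments linked to the mutant allele contribute to the Pik3cd difference was not tested. Sirpa lies on chromosome 2, and none of its 10 neighbours passed at E9.5 or at E8.5.

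**Figure D4:**
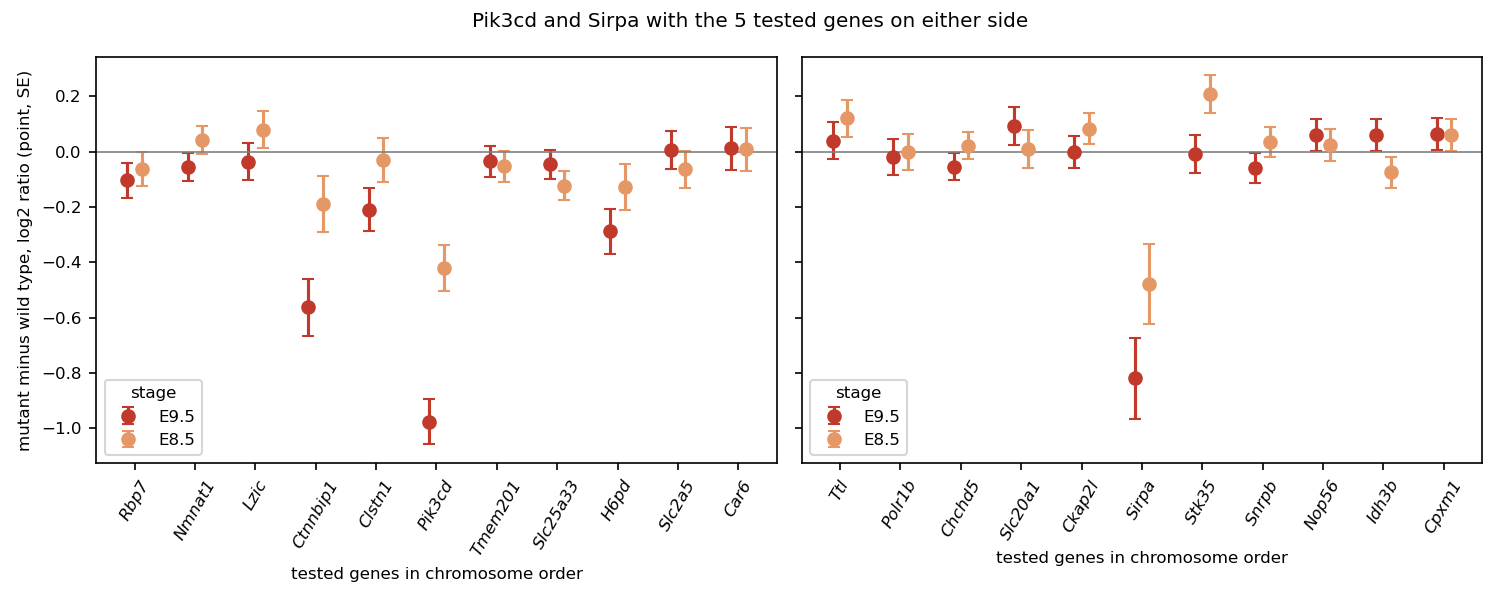
Mutant-minus-wild-type log2 differences with standard errors of the 5 tested genes on either side of Pik3cd and of Sirpa, by their order on the chromosome. Beside Pik3cd, Ctnnbip1 is low at E9.5 (-0.56), while the neighbours of Sirpa lie between -0.06 and 0.09 at E9.5.

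Beyond these 10 genes, 132 other genes of myeloid cells were listed by role, and 80 of them were measured. The lists were drawn up with earlier results of these data known. Their counts, and the p-values of genes named from them, are therefore a description and not an independent test. At E9.5, 5 of the 80 differed between mutant and wild type, 2 higher and 3 lower. Of all genes 1.97% did, 0.892% higher and 1.08% lower. Of the 80, 18 had an unadjusted p under 0.05, against 1660 of all 13894. The median was -0.01 over the 80, with 38 above 0 and 42 below. At E8.5, 3 of the 80 were lower and 0 higher, against 1.45% of all genes (0.705% higher and 0.741% lower). There 11 of the 80 had an unadjusted p under 0.05, against 1721 of all 13894, and 40 lay on each side of 0. The list as a whole was thus balanced around 0 at both stages, and the genes that passed are named next.

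Csf2rb and Csf2rb2 encode closely related beta chains of the receptors for interleukin 3 and related cytokines, and were lower in mutants at both stages. Csf2rb had log2 ratios of -0.35, -0.62 and -0.42 in mutant E9.5 yolk sacs, against 0.66, 0.70 and 0.44 in wild-type E9.5 yolk sacs. At E8.5 it had 0.24, 0.34 and -0.005 in mutants, against 1.26, 1.17 and 1.69 in wild type. The genotypes were far apart, by -1.06 ± 0.13 at E9.5 (adjusted p = 0.00037 by limma) and -1.18 ± 0.13 at E8.5 (adjusted p = 0.000272). Csf2rb2 differed by -0.89 ± 0.12 at E9.5 (adjusted p = 0.00123) and by -1.09 ± 0.12 at E8.5 (adjusted p = 0.000378). Since a probe of either may also take up transcripts of the other, it is uncertain that both genes changed.

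Lcp1 encodes L-plastin, an actin-bundling protein of leukocytes. Its log2 ratios were 0.79, 0.95 and 0.97 in mutant E9.5 yolk sacs, against 1.48, 1.56 and 1.27 in wild-type E9.5 yolk sacs. At E8.5 they were 0.23, 0.39 and 0.35 in mutants, against 0.41, 0.50 and 0.62 in wild type. The genotypes did not overlap at either stage, and the difference was -0.53 ± 0.08 at E9.5 (adjusted p = 0.00271 by limma) and -0.18 ± 0.08 at E8.5 (adjusted p = 0.372).

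Higher in mutants at E9.5 were Nr1h3, the lipid-sensing liver X receptor alpha, by 0.57 ± 0.10 (adjusted p = 0.0055 by limma), and Hdc, the histamine-making enzyme of mast cells and basophils, by 0.39 ± 0.08 (adjusted p = 0.0149). Both lost their call without the trophoblast-high arrays, at adjusted p = 0.0941 and 0.0834, although the differences there were 0.52 and 0.41. Hdc also lost it without wild-type E9.5 replicate 1 (adjusted p = 0.0893) or mutant E9.5 replicate 2 (adjusted p = 0.0845). Lower in mutants at E8.5 was Lyve1, a hyaluronan receptor of macrophages and endothelium, by -0.37 ± 0.08 (adjusted p = 0.0446 by limma). The call was lost in 9 of the 12 fits that each left out 1 array, and without the trophoblast-high arrays (-0.27, adjusted p = 0.235). It was also lost with the mean of the kept Lyve1 probes, at -0.20 (adjusted p = 0.301). The processed signals (-0.40), median centring (-0.52) and no filter on dim probes (-0.37) ended it too. So did the authors' deposited table (-0.40), which repeats the processed signals, and a fit of only the arrays compared (-0.37). With median centring in place of loess, Csf2rb was the only one of the 5 genes still called at E9.5, where Csf2rb2, Lcp1, Nr1h3 and Hdc had adjusted p = 0.0529, 0.0624, 0.281 and 0.272 by limma. Their differences on that scale were -0.97, -0.64, 0.53 and 0.34.

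By role, 2 of 7 growth factor and receptor genes and 1 of 11 regulators passed at E9.5 by limma. So did 1 of 3 mast cell and basophil genes and 1 of 10 pan-leukocyte and actin genes. None passed among 22 macrophage surface genes, 16 genes of receptor and phosphoinositide 3-kinase signalling or 5 late granule genes. Neither did any of 4 NADPH oxidase or 2 early granule genes. Of all genes 1.97% passed, so a count of 0 in lists this short is near that share. At an unadjusted p under 0.05 the counts, in this order of roles, were 4, 1, 2, 1, 4, 3, 0, 3 and 0, against 1660 of all 13894. The Fc receptor gene Fcgr3, which pairs with Fcer1g, did not pass at E9.5 (-0.51 ± 0.13, adjusted p = 0.0589 by limma). It is named after its values were seen. Of the 22 macrophage surface genes, 12 lay above 0 and 10 below at E9.5, with a median of 0.001. Many defining genes were out of reach of the arrays. Of 31 macrophage surface genes, 22 were measured and 8 were well above background on no array, among them Itgam, Siglec1, Timd4 and Trem2. Of 7 early granule genes, 2 were measured, and Elane and Prtn3 were above background on no array.

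**Figure D5:**
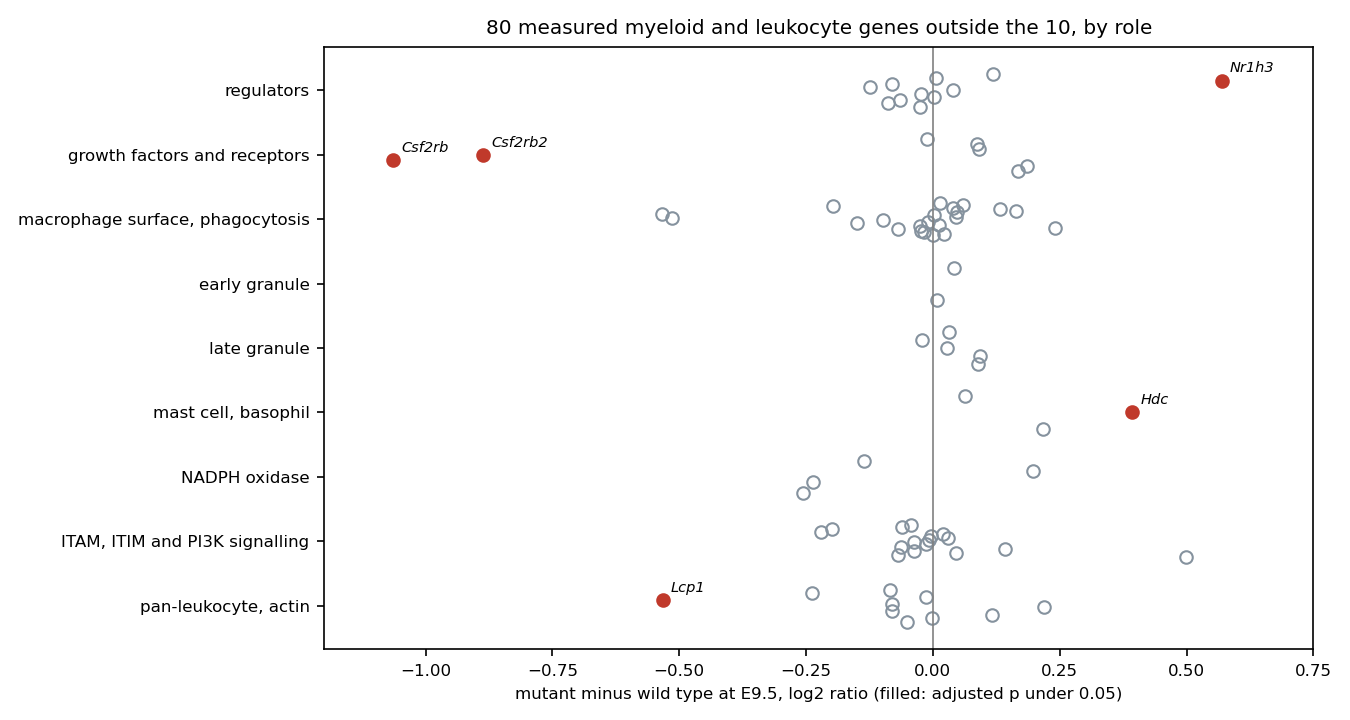
Mutant-minus-wild-type log2 differences at E9.5 of the 80 measured myeloid genes outside the 10, in rows by role, with filled points at an adjusted p under 0.05. The 5 filled points are Csf2rb (-1.06), Csf2rb2 (-0.89), Lcp1 (-0.53), Hdc (0.39) and Nr1h3 (0.57), and the others are spread around 0.

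Between the stages, 20 of the 80 genes differed in mutants, 16 higher and 4 lower at E9.5, against 21.6% of all genes, and 16 differed in wild type, 11 higher and 5 lower, against 23.8%. The medians were 0.04 and 0.03. Lcp1 rose in both, by 0.58 in mutants and 0.92 in wild type (adjusted p = 0.000234 and 4.47e-06 by limma), and so did Cebpb, a transcription factor of myeloid cells, by 0.36 and 0.70. Cyba (0.56 in mutants and 0.47 in wild type) and Arhgdib (0.40 and 0.47) also rose in both. Csf2rb and Cx3cl1, which encodes fractalkine, fell in both, Csf2rb by 0.65 in mutants and 0.77 in wild type. With median centring neither Csf2rb (adjusted p = 0.133 in mutants and 0.0592 in wild type, by limma) nor Cx3cl1 (0.472 and 0.0547) passed, and without the trophoblast-high arrays Cebpb did not in mutants (adjusted p = 0.0692).

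Markers of other cells also differed between the groups. The 7 measured megakaryocyte genes had mean log2 ratios of 0.07 to 0.23 in mutants and -0.16 to 0.10 in wild type at E9.5. At E8.5 the ranges were -0.32 to -0.28 in mutants and -0.64 to -0.61 in wild type. There 3 of the 7 were higher in mutants, against 0.705% of all genes, among them Pf4 by 1.26 ± 0.12 (adjusted p = 0.000132 by limma). The 9 erythroid genes had means of 2.17 to 2.62 in mutants and 2.04 to 2.16 in wild type at E8.5. Of these 9, 1 passed there, against 1.45% of all genes. The 6 visceral endoderm genes differed between the stages by means of 0.51 in mutants and 0.53 in wild type. In each, 3 of the 6 passed, all higher at E9.5. Of all 13894 genes, 1526 passed as higher at E9.5 in mutants and 1786 in wild type. The part of these cells in the differences of the myeloid genes was not tested. Lymphoid and natural killer markers were well above background on no array for 10 of 12 genes.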

How the data were processed

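RNA of 12 whole yolk sac samples was hybridised to 2-colour Agilent arrays, yolk sac in Cy5 against the common reference in Cy3, with no dye swap. The deposited scanner output gives, per the file headers of Feature Extraction 9.5.1.1, spot and background intensity in both channels, a log10 ratio of processed signals, and flags of the software (other values) for spots well above background. A value table deposited by the authors holds log2 ratios that followed the centred log10 ratios (r = 0.9999 to 1 per array) and was used as an alternative. It thus repeats the processed signals for the probes it holds, although both are counted among the alternatives.

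Spot mean intensity was corrected with normexp (offset 50) and normalised by loess within arrays in limma 3.58.1 (R 4.3.3, data.table version 1.17.8), control spots having weight 0. After the correction first failed, 6 spots lying over 20 units below background were set missing. Probes flagged as well above background in Cy5 on each of the 3 arrays of some group were kept, which left 20065 of 41174 probes, and a gene took its brightest kept probe. This gave 13894 genes. One linear model over the 4 groups (8 residual degrees of freedom) was fitted with lmFit and eBayes, with Benjamini-Hochberg adjustment across the genes tested. Differences had a median standard error of 0.0674. The number of arrays limits the precision.

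The 10 genes and the gene lists were chosen with earlier results of these data known. Other genes named are those of the lists that passed, at most 10 in each direction per comparison. Also named are the 3 genes most alike to each of the 10 over the arrays, and Arid1a. So are the 5 tested genes on either side of Pik3cd and Sirpa, and genes of other cells whose list moved. Fcgr3 was added after its values were seen. Gene symbols were updated through RefSeq by accession (23374 probes), current symbol (6733) or older symbol (2919), and 8148 kept the symbol of the array. Replicate number equals slide, and same-numbered arrays deviated from their group means together (r = 0.0784 to 0.381 over the 4 pairs of groups and 3 slides). No replicates had identical values. The labels do not state that replicates came from separate animals, so p-values measure the spread between these samples. Alternatives were the processed signals, median centring without loess, no filter on dim probes, the mean of the kept probes, the slide as a block, array weights, the authors' deposited values, fits of only the groups compared, leaving out each array and, added after seeing the data, leaving out 3 arrays high in trophoblast genes.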

Additional observations from a re-analysis of the deposited data

Results flagged for a closer look

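A few genes had differences of opposite sign on every slide at the 2 stages or in the 2 genotypes. Some of these differences were near 0. None of the genes passed the test of the change by limma. Mutant minus wild type, Mpo was -0.62 at E9.5 and 0.082 at E8.5, a change of -0.70 ± 0.15. The transcription factor gene Cebpb was -0.088 at E9.5 and 0.26 at E8.5, a change of -0.35 ± 0.12 (adjusted p = 0.675 by limma). The chemokine gene Cx3cl1 was 0.091 at E9.5 and -0.10 at E8.5, a change of 0.19 ± 0.12 (adjusted p = 0.93 by limma). For Mpo the E8.5 differences within slides were 0.002, 0.01 and 0.23, and the genotypes overlapped. The 0.23 came from slide 3, whose mutant E8.5 array was high in trophoblast genes.

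From E8.5 to E9.5, Lyve1 differed by 0.32 in mutants and -0.10 in wild type, a change of 0.42 ± 0.12 (adjusted p = 0.514 by limma). Nr1h3 differed by 0.35 in mutants and -0.13 in wild type, a change of 0.48 ± 0.14 (adjusted p = 0.517).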

How the results depend on the processing

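Of the myeloid genes outside the 10, the count that differed between mutant and wild type at E9.5 was 5 as reported. It was 1 with median centring, 8 with the slide as a replicate block (4 higher and 4 lower) and 3 without the 3 arrays high in trophoblast genes (the trophoblast-high arrays). At E8.5 it was 3, and 5 with array weights. Between the stages it was 20 in mutants, and 11 without the trophoblast-high arrays, and 16 in wild type, and 26 in the authors' table. Leaving out 1 array gave 4 to 7 genes at E9.5, 2 to 4 at E8.5, 13 to 21 between stages in mutants, 11 to 18 in wild type, and 0 to 0 for the change of the mutant effect. Over all genes, the 274 calls at E9.5 were 361 with the block, 26 with median centring, 173 on the processed signals and 181 in the authors' table. They were 122 without the trophoblast-high arrays and 145 to 369 without 1 array. The 201 at E8.5 were 10 with median centring, 391 with array weights, 123 from only the arrays compared, 86 without the trophoblast-high arrays and 91 to 221 without 1 array. The 0 calls for the change of the mutant effect were 1 with the block, 2 with array weights, 2 without the trophoblast-high arrays and 0 to 5 without 1 array. Median centring left 1755 stage calls in mutants (1677 higher and 78 lower) and 1458 in wild type (1381 and 77), and put the all-gene medians at 0.14 and 0.11, against -0.01 in both as reported. It turned Ptpn11 in mutants to 0.0511, against -0.19. Without the trophoblast-high arrays 1331 stage calls were left in mutants. The 3303 stage calls in wild type were 3142 in the authors' table, which held only 19007 transcript probes. The causes were not tested. Fitting only the groups compared cannot be done for the change of the mutant effect. Over the genes named outside the 10, 349 values kept their side of the threshold in alternatives that left out no array singly, 46 fell short of it and 1 changed sign.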
